A study of Mus musculus with 4 samples.

Results

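The nuclear lamina and the LINC complex (linker of nucleoskeleton and cytoskeleton) were examined in mouse neural progenitor cells (NPCs) on a soft and a hard matrix, with and without knockdown of the transcription factor Srf. A set of 10 genes was chosen by symbol, covering the lamins (Lmna, Lmnb1 and Lmnb2), proteins of the inner nuclear membrane (Lbr, Emd and Tmpo), the SUN proteins (Sun1 and Sun2) and the nesprins (Syne1 and Syne2). All 10 were found among the 21862 gene symbols listed once in each library. All 10 had an FPKM above 2 in all 4 libraries, as did 10489 genes in total. FPKM is a read count scaled for transcript length and for library depth, so levels of different genes can be compared within a library. Cells of the line N31 were used, which was made from ESC-derived NPCs by way of iPSCs and carries the reprogramming factors Oct4, Klf4, c-Myc and Sox2 under a doxycycline-inducible promoter, an rtTA transgene and a blasticidin-resistance gene in the Oct4 locus. Control NPCs were N31 cells, and whether they carried a control vector is not stated in the sources used here. Srf-knockdown NPCs (shSrf) were N31 cells expressing 1 short hairpin RNA against Srf from a retroviral vector, after selection with puromycin. Both were kept without EGF and bFGF on a collagen-coated matrix of 0.5 kPa, which is near the stiffness of brain, or of 12 kPa. Each of the 4 conditions was 1 library, so no difference has a replicate check, no test was made, and the errors given cover the counting of reads only.

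The lamina is a meshwork of A-type lamins (from Lmna) and B-type lamins (from Lmnb1 and Lmnb2) under the inner nuclear membrane, and it sets how stiff the nucleus is. SUN proteins cross the inner membrane, bind lamins on the nuclear side and hold nesprins by their KASH domains in the space between the membranes. Nesprins cross the outer membrane and bind actin, and through motor proteins microtubules, so that force on the cytoskeleton reaches the nucleus. Tissues that are stiff are known to hold more A-type lamin than soft ones such as brain, where B-type lamins prevail. Lamin A/C and emerin, the product of Emd, are also known to affect actin assembly in the nucleus and the nuclear entry of Mkl1, the cofactor that couples Srf to actin.

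Promoter sequences are shown for Sun2 and Syne1, the members with the lowest ratios of Srf-knockdown to control NPCs. Sun2 lies on chromosome 15 of mm10 from 79724068 to 79742536, and Syne1 on chromosome 10 from 5020192 to 5550692, both on the minus strand. The sequences are RefSeq's on GRCm38.p6, the 250 bases before an annotated start site, written 5′ to 3′ on the minus strand. Capitals mark the 10 bases nearest to the CArG box, the binding motif of Srf. For Syne1 all 3 annotated starts are given, from the outermost, which opens the transcripts of the actin-binding end, to the innermost, which opens short transcripts of the membrane-anchored end.
Sun2, chr15:79742537-79742786: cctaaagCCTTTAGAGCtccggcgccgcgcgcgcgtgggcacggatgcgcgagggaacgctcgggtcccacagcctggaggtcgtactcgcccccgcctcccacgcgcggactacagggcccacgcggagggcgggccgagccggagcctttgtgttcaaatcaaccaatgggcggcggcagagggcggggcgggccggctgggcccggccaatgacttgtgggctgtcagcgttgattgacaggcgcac
Syne1 outermost start, chr10:5550693-5550942: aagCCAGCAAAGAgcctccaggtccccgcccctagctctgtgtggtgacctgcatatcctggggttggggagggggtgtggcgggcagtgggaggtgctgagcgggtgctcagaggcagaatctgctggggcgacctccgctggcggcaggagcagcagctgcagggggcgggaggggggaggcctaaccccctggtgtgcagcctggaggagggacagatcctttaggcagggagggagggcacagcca
Syne1 middle start, chr10:5488315-5488564: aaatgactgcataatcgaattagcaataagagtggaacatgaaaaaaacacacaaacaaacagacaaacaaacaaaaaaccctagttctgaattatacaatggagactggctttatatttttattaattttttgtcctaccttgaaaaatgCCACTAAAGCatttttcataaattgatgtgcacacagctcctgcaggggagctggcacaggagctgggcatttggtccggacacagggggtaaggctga
Syne1 innermost start, chr10:5069064-5069313: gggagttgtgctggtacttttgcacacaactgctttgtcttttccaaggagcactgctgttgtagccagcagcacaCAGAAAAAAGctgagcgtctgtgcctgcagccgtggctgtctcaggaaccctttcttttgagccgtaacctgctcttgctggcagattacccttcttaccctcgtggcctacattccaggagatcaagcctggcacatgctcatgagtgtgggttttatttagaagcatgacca
The marked bases of Sun2 had 2 mismatches to the CArG box and began 243 bases before the start site. The middle start of Syne1 also had 2 mismatches at the nearest place, and its outermost and innermost starts had 3. An exact CArG box, which reads the same on either strand, was in 1.47% of 32851 promoters of the same length, and up to 1 mismatch was found in 18.6%. Up to 2 mismatches were found in 75.2% of them. In this respect the marked bases of Sun2 and of the middle start of Syne1 are ordinary. Those of the outermost and innermost starts of Syne1, with 3 mismatches, are a poorer match than in that 75.2%. Promoters of Lmnb1 were left out of this count. None of the 15 promoters of the other 9 members held an exact match. The nearest match had 1 mismatch in 2 of them, at the inner of the annotated starts of Lmna and of Tmpo. The absence of these letters from the window says nothing of Srf binding elsewhere.

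By low FPKM values that differ in whole-read steps, the libraries held between 24100000 and 62300000 reads, with the smallest in control NPCs at 12 kPa and the largest in Srf-knockdown NPCs at 12 kPa. For Srf, the targeted gene, the FPKM at 0.5 and 12 kPa was 34.4 and 35.6 in the control libraries and 16.2 and 17.4 in the knockdown libraries. Of 10 neural progenitor markers, 6 were above an FPKM of 2 in all libraries, while Sox1 and Hes5 were listed at 0 in all of them. Of 8 mesenchymal markers 7 were above 2 in all libraries, of 5 neuron markers 3 and of 5 astrocyte markers 2. Summed over its markers, the neural progenitor list had an FPKM of 1802 and 1585 in the control libraries and 2447 and 2470 in the knockdown libraries. Vim made up at least 93.5% of each sum, and without it the sums were 106 and 103 against 67.1 and 73.8. The list was split, since of the 6 markers above 2, 3 were lower and 3 higher by more than 1.1-fold in the knockdown at both stiffnesses. The neuron sum was 52.3 and 56.4 against 119.7 and 115.3, with Dcx and Rbfox3 under 0.1 throughout. The astrocyte sum was 30.7 and 32.2 against 40.0 and 37.3, and the mesenchymal sum 3669 and 3329 against 2980 and 3077. Without Acta2 and Tagln, known Srf targets left out after their values were seen, the mesenchymal sum was 3050 and 2764 against 2957 and 3036. The part of these differences in the results below was not tested. In such bulk libraries, fewer cells of a type and less RNA per cell cannot be told apart.

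**Figure D1:**
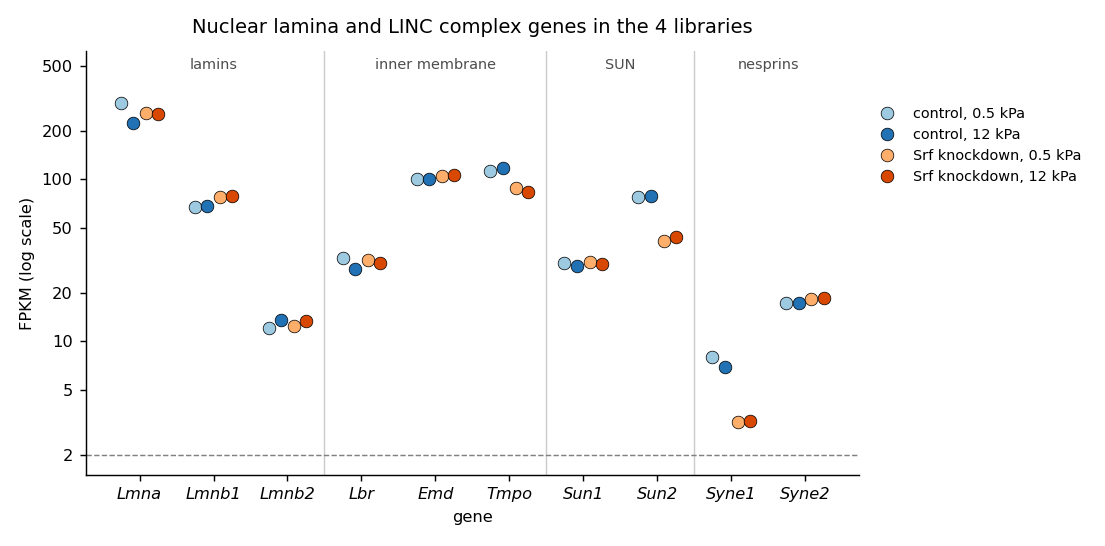
FPKM (log scale) of the 10 genes in each of the 4 libraries, 1 point for each library, with the minimum of 2 as a dashed line. Sun2, Syne1 and Tmpo are lower by more than 1.1-fold in Srf-knockdown than in control NPCs at both stiffnesses, as are 28.8% of all genes. Lmna is highest in control NPCs at 0.5 kPa.

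The genes were expressed over a wide range, from Lmna at the top to Syne1 at the bottom in every library. Lmna had an FPKM of 295 in control NPCs at 0.5 kPa, and it stood above at least 95.7% of the genes in every library. Lmnb1 had 67.9 and Lmnb2 12.1 in the same library, so Lmna transcripts outnumbered those of both B-type lamins together. Emd (100.1), Tmpo (113) and Sun2 (78.3) were also among the higher members there, ahead of Lbr (32.8), Sun1 (30.7), Syne2 (17.3) and Syne1 (8.03). The order was nearly kept across the libraries. In control NPCs Tmpo stood above Emd and Sun2 above Lmnb1, and both pairs were in the opposite order in Srf-knockdown NPCs at either stiffness. Lbr and Sun1 had neighbouring levels and changed places in control NPCs at 12 kPa (28.2 and 29.3).

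The comparison of Srf-knockdown with control NPCs asks which of these genes differ between the populations at a given stiffness. With 1 hairpin and a control vector not stated, an effect of Srf cannot be told apart from one of vector or selection. Sun2, Syne1 and Tmpo were lower at both stiffnesses, Lmnb1 was slightly higher at both, and Lmnb2, Lbr, Emd, Sun1 and Syne2 stayed within 1.1-fold, the threshold of the study's methods. At 0.5 kPa, 4 of the 10 genes were lower by more than 1.1-fold and 1 was higher, where 35.7% of all genes above the minimum were lower and 37.4% higher. At 12 kPa, 3 were lower and 2 higher, where 35.9% and 37.6% of all genes were. In the same direction at both stiffnesses, 3 were lower and 1 higher, against 28.8% and 30.3% of all genes. The shares of lower genes were near the background and the shares of higher genes below it, and the median log2 ratio of the 10 genes was -0.01 at 0.5 kPa and 0.06 at 12 kPa, where that of all genes was 0.01 at each. Of the members, 2, Sun2 and Syne1, were lower by more than 1.5-fold at both stiffnesses, which was so for 6.17% of all genes.

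For Sun2, which bridges the lamina to nesprins, the FPKM at 0.5 and 12 kPa was 78.3 and 79.1 in the control libraries and 41.5 and 44.1 in the knockdown libraries. Sun2 was lower by more than 1.5-fold at both stiffnesses, as were 6.17% of all genes. The log2 ratio was -0.92 at 0.5 kPa and -0.84 at 12 kPa, with a counting error of 0.02 at each, or 47.0% and 44.2% lower. Of the 10489 genes, 381 and 376 had a lower ratio. When the median of genes of like GC content was taken off each ratio (centring by GC content), the ratios were -1.06 and -1.12. Sun1, its paralog with overlapping functions, had an FPKM between 29.3 and 30.8 in the 4 libraries, and its log2 ratios were 0.01 ± 0.05 and 0.04 ± 0.06 (counting SE). The difference between the SUN genes was thus many times the counting error.

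For Syne1, which encodes nesprin-1, the FPKM was 8.03 and 6.93 on the soft and hard matrix without knockdown and 3.18 and 3.22 with it. Syne1 too was among the 6.17% of all genes lower by more than 1.5-fold at both stiffnesses. It was the member with the widest range over the libraries (1.33 on the log2 scale). Its log2 ratio was -1.33 ± 0.07 at 0.5 kPa and -1.10 ± 0.07 at 12 kPa (counting SE), a level 60.4% and 53.5% lower, and 137 and 187 genes had a lower ratio. At least 663 reads were estimated for Syne1 in each library with its shortest transcript above 1000 nucleotides, the second lowest of the members after Lmnb2 (473). With 1 added to each FPKM, the ratios were -1.11 and -0.91. One FPKM value is given for a gene, so the giant and the short transcripts of Syne1 cannot be told apart. Syne2, which encodes nesprin-2, had between 17.3 and 18.6 in all libraries, with log2 ratios of 0.07 ± 0.06 and 0.11 ± 0.06.

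**Figure D2:**
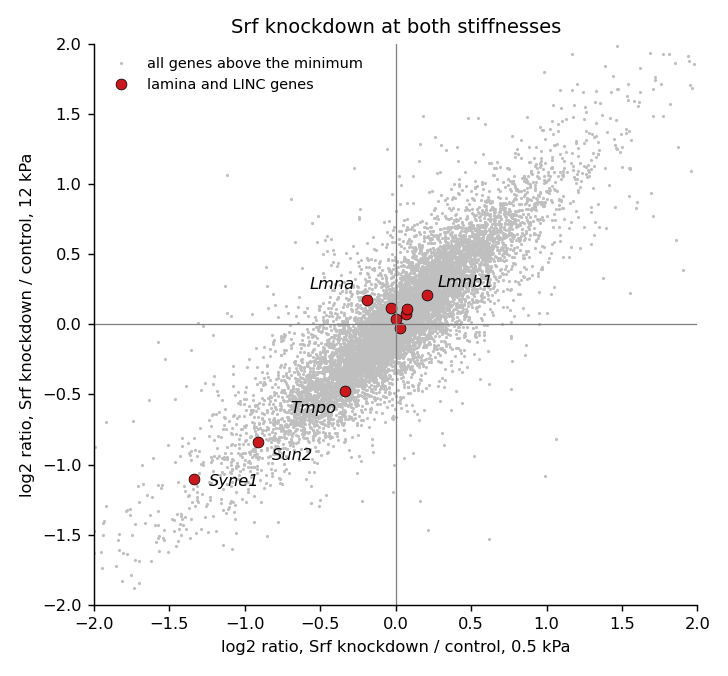
Log2 ratio of FPKM of Srf-knockdown to control NPCs at 0.5 kPa (x axis) and 12 kPa (y axis), for the 10489 genes above the minimum (grey) and the 10 lamina and LINC genes (red), 83 genes lying outside the axes. Syne1, Sun2 and Tmpo sit in the lower left, and Lmna lies below 0 at 0.5 kPa and above 0 at 12 kPa, the latter turning to -0.10 when centred by GC content.

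Among the inner membrane genes of the set (Lbr, Emd and Tmpo), Tmpo was the only one beyond 1.1-fold at both stiffnesses. Tmpo encodes the LAP2 proteins, which bind lamins and chromatin, and lies on chromosome 10 of mm10 from 91147571 to 91181752. Its FPKM was 113 and 117 without and 89.1 and 84.1 with the knockdown. It was lower by more than 1.1-fold at both stiffnesses, as were 28.8% of all genes. The log2 ratio was -0.34 ± 0.03 at 0.5 kPa and -0.48 ± 0.03 at 12 kPa (counting SE), and 20.3% and 13.2% of genes had a lower ratio, so Tmpo was far less extreme than Sun2 or Syne1. Emd, which like Tmpo carries a LEM domain, had an FPKM from 100.1 to 106 in the 4 libraries and log2 ratios of 0.07 and 0.08. Lbr, the lamin B receptor and also a sterol reductase, had 32.8 and 28.2 without and 32.0 and 30.6 with the knockdown, and its log2 ratio was -0.03 at 0.5 kPa and 0.12 at 12 kPa. The latter became 0.31 when centred by GC content.

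Among the lamins, Lmnb1 stood at an FPKM of 67.9 and 68.1 without and 78.3 and 78.9 with the knockdown, and the libraries of each population nearly coincided. The log2 ratio was 0.21 at both stiffnesses with a counting error of 0.02 and 0.03, and 69.1% and 68.6% of all genes had a lower ratio. Centred by GC content, it was 0.14 and 0.12, just within 1.1-fold. Since Lmnb1 is known to follow cell proliferation, proliferation genes are given beside it. Of 24 such genes, 6 (25.0%) were lower and 7 (29.2%) higher by more than 1.1-fold at both stiffnesses, near the 28.8% and 30.3% of all genes, and the median log2 ratio was 0.07 at 0.5 kPa and 0.01 at 12 kPa. Mki67 had log2 ratios of -0.19 and -0.19 and Top2a of 0.09 and -0.05. The part of proliferation in the level of Lmnb1 was not tested. Lmnb2 had an FPKM between 12.1 and 13.6 in the 4 libraries, and its log2 ratios were 0.03 ± 0.08 and -0.02 ± 0.08 (counting SE). Centred by GC content they were -0.16 and -0.32, so the direction for Lmnb2 depended on this choice.

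Lmna was lower in Srf-knockdown than in control NPCs at 0.5 kPa, with a log2 ratio of -0.19 ± 0.02 (counting SE), and higher at 12 kPa, with 0.18 ± 0.02, a direction that turned when centred by GC content. Its FPKM was 259 and 252 in Srf-knockdown NPCs, which lies between the control values of 295 at 0.5 kPa and 223 at 12 kPa. The control libraries differed from each other more than the knockdown libraries did. The transcript of Lmna is rich in GC (59.3%), the highest of the 10 genes, and centred by GC content its ratios were -0.37 at 0.5 kPa and -0.10 at 12 kPa, so that the higher level at 12 kPa was lost.

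The comparison of the 12 kPa with the 0.5 kPa matrix asks which of these genes respond to stiffness, within either population. In control NPCs, Lmna, Lbr and Syne1 were lower on the hard matrix and Lmnb2 was higher, which is 3 genes lower and 1 higher by more than 1.1-fold. Of all genes, 16.9% were lower and 17.9% higher. In Srf-knockdown NPCs none of the 10 genes was beyond 1.1-fold in either direction (Lmna alone was when centred by GC content), where 13% of all genes were lower and 17.6% higher. The 10 genes had a median log2 ratio of 0.00388 without and 0.01 with the knockdown, and all genes of 0.00305 and 0.00640. A stiffness ratio and a knockdown ratio share libraries, so the difference between the stiffness ratios of a gene equals that between its knockdown ratios and is no separate evidence.

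**Figure D3:**
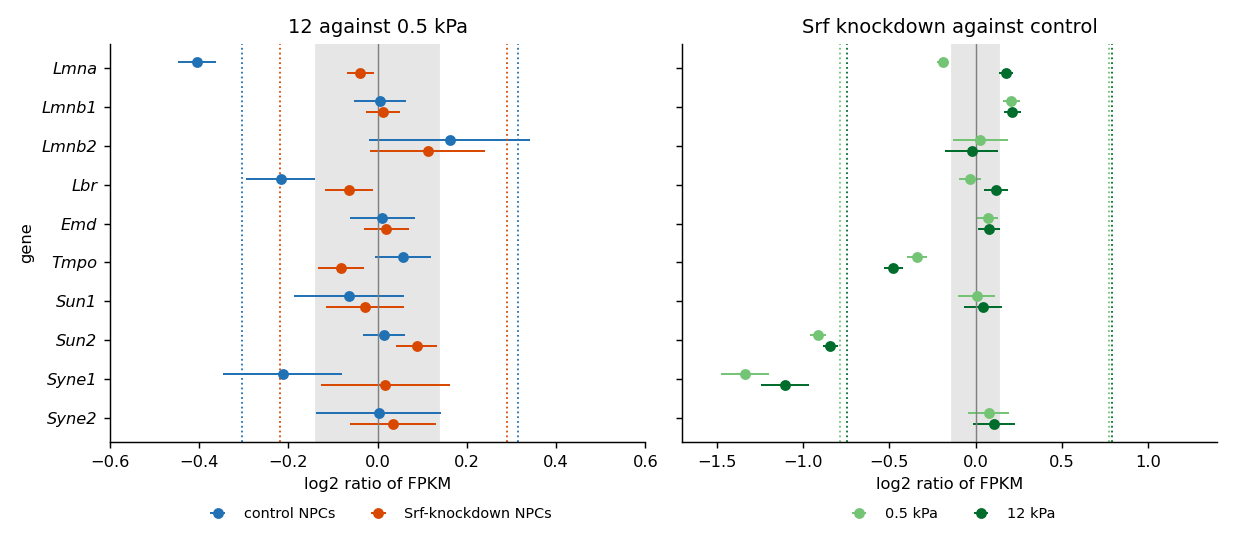
Log2 ratios of FPKM of the 10 genes for 12 against 0.5 kPa (left) and for Srf-knockdown against control NPCs (right), with bars for the 95% interval of counting error only, grey bands for ratios within 1.1-fold, and dotted lines for the 5th and 95th percentiles of all genes in the same comparison. Lmna in control NPCs on the left and Sun2 and Syne1 on the right lie beyond the 5th percentile.

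Lmna showed the largest difference of the 10 genes between the matrices. On chromosome 3 of mm10 from 88481148 to 88509932, it stood at 295 on the soft and 223 on the hard matrix in control NPCs, 24.5% lower, a log2 ratio of -0.41 ± 0.02 (counting SE). Of the 10489 genes, 271 (2.58%) had a lower ratio, and centred by GC content it was -0.37. In Srf-knockdown NPCs the log2 ratio of Lmna was -0.04 ± 0.02, and centred by GC content it was -0.14, just beyond 1.1-fold. The difference between the log2 ratios (Srf-knockdown minus control) was 0.37 ± 0.03 (counting SE), and was not tested for lack of replicates.

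The other members beyond 1.1-fold were closer to the threshold of 0.14 on the log2 scale. Lbr went from an FPKM of 32.8 to 28.2 in control NPCs, a log2 ratio of -0.22 ± 0.04 (counting SE), and had -0.06 ± 0.03 in Srf-knockdown NPCs. For Syne1 the values were -0.21 ± 0.07 without and 0.02 ± 0.07 with the knockdown. Lmnb2 went from 12.1 to 13.6 in control NPCs (0.16 ± 0.09) and from 12.4 to 13.4 in Srf-knockdown NPCs (0.11 ± 0.07), and its 95% counting interval in control NPCs, from -0.02 to 0.34, included 0. Lmnb1, Emd, Sun2 and Syne2 had log2 ratios between 0.00201 and 0.01 in control NPCs, so that these genes had almost the same level on both matrices.

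The proportions between partner genes followed from these levels. The ratio of Lmna to the sum of Lmnb1 and Lmnb2, in FPKM, was 3.69 in control NPCs at 0.5 kPa and lay at 2.73 in control NPCs at 12 kPa, 2.86 in Srf-knockdown NPCs at 0.5 kPa and 2.73 at 12 kPa. These ratios were not centred by GC content. Centred, the log2 ratios in the knockdown at 0.5 and 12 kPa were -0.37 and -0.10 for Lmna and 0.14 and 0.12 for Lmnb1. Without centring, the soft-matrix control library was set apart from the other 3, which were close to each other. The summed FPKM of the 3 lamin genes was 375 in that library and between 305 and 350 in the others. For the SUN genes the split was by population instead. Of the summed FPKM of Sun1 and Sun2, Sun2 made up 71.9% and 72.9% without and 57.4% and 59.4% with the knockdown, and that sum went from 109 and 108 to 72.3 and 74.3. The FPKM of Syne2 was 2.15 and 2.5 times that of Syne1 without and 5.72 and 5.79 times with the knockdown, where the long transcripts of both genes make such ratios approximate.

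Other genes of the nuclear envelope, enzymes that process lamins and cytoplasmic partners of the LINC complex were taken from lists made by function. Together they are called envelope genes here. Of 65 genes listed, 59 were above the minimum. In Srf-knockdown against control NPCs, 28 of these were lower and 13 higher at 0.5 kPa and 28 lower and 14 higher at 12 kPa, with median log2 ratios of -0.11 and -0.10. That is 47.5% lower at each stiffness, against 35.7% and 35.9% of all genes, and 22.0% and 23.7% higher, against 37.4% and 37.6%. Nuclear pore genes made up 16 of those lower at 0.5 kPa and 15 at 12 kPa, and 14 of 27 were lower and 4 higher at both stiffnesses, with medians of -0.18 and -0.17. These are 51.9% and 14.8% of the 27, against 28.8% and 30.3% of all genes. None of these 27 was beyond 1.5-fold the same way at both. The shares and medians of these lists were not centred by GC content, so the part of GC content in them was not tested. Nup210, below the minimum and named after its values were seen, had an FPKM of 0.125 and 0.189 without and 1.09 and 2.18 with the knockdown. Between the matrices, 12 of the 59 genes were lower and 6 higher in control NPCs, and 3 were lower and 8 higher in Srf-knockdown NPCs. As shares, this is 20.3% and 10.2% in control, against 16.9% and 17.9% of all genes, and 5.08% and 13.6% with the knockdown, against 13% and 17.6%.

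Among the other LINC genes, 3 of 7 were above the minimum and they went different ways. Syne3, which encodes nesprin-3, the partner of plectin, had an FPKM of 9.84 and 7.95 without and 5.6 and 5.36 with the knockdown, and is named after its values were seen, as the lower of the 3. Syne4, which encodes the kinesin-binding nesprin-4, had 22.8 and 28.8 without and 33.5 and 38.7 with it. It was higher by more than 1.1-fold on the hard matrix in both populations (log2 ratios of 0.34 and 0.21). Spag4, a SUN-domain gene, had 3.07 and 4.37 without and 5.81 and 6.83 with the knockdown, so it was higher on the hard matrix and higher in the knockdown. Its levels were near the minimum. Its log2 ratios between the matrices were 0.51 ± 0.18 in control and 0.23 ± 0.10 in Srf-knockdown NPCs (counting SE). Those of knockdown to control were 0.92 ± 0.16 at 0.5 kPa and 0.64 ± 0.14 at 12 kPa. No counting error was had for Syne3 and Syne4. Sun3, Sun5, Lrmp and Ccdc155 stayed below 2. In Srf-knockdown NPCs Syne1 and Syne3 were therefore lower, Syne4 higher, and Syne2 within 1.1-fold.

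A list of 14 genes held those for LEM-domain proteins, their partner BAF, other inner membrane proteins, and Cbx5, Vrk1, Tor1a, Tor1b and Tor1aip2. Of the 14, 4 (28.6%) were lower and 2 (14.3%) higher at both stiffnesses in Srf-knockdown NPCs, against 28.8% and 30.3% of all genes. Lemd2, which encodes a LEM-domain protein of the inner membrane, had log2 ratios of 0.68 and 0.61. Tor1aip2, which encodes a torsin cofactor, was higher on the hard matrix in control (0.15) and Srf-knockdown NPCs (0.16). Nrm, which encodes nurim, an inner membrane protein, is named after its values were seen, with an FPKM of 44.8 and 31.9 without and 39.2 and 44.4 with the knockdown. It was lower in the knockdown at 0.5 kPa (-0.19) and higher at 12 kPa (0.48), and lower on the hard matrix in control (-0.49) but higher in Srf-knockdown NPCs (0.18). Centred by GC content, these were -0.39, 0.25, -0.47 and 0.13. Opposite directions beyond 1.1-fold were seen for 2.42% of all genes in the knockdown comparisons and for 6.01% in the stiffness comparisons. Of the 5 genes for enzymes that process lamins, 2 (40%) were lower and 1 (20%) higher in Srf-knockdown NPCs at both stiffnesses, against 28.8% and 30.3% of all genes. Icmt, the methyltransferase that acts on the farnesylated end of prelamin A and B-type lamins, had an FPKM of 26.5 and 25.5 without and 15.9 and 15.5 with the knockdown (log2 ratios of -0.73 and -0.72). The other one lower was Zmpste24, the protease that matures prelamin A (-0.42 and -0.47), and the one higher was Fntb, a farnesyltransferase subunit (0.59 and 0.56), and these 2 are named after their values were seen.

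Of 10 genes for cytoplasmic partners of the LINC complex, 4 (40%) were lower and 2 (20%) higher in Srf-knockdown NPCs at both stiffnesses. Of all genes, 28.8% were lower and 30.3% higher. Pafah1b1, which encodes the dynein regulator Lis1, had an FPKM of 141 and 123 without and 83.6 and 77.1 with the knockdown (log2 ratios of -0.76 and -0.68). Klc1, a kinesin light chain, was lower on the hard matrix in both populations (-0.17 and -0.15).

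**Figure D4:**
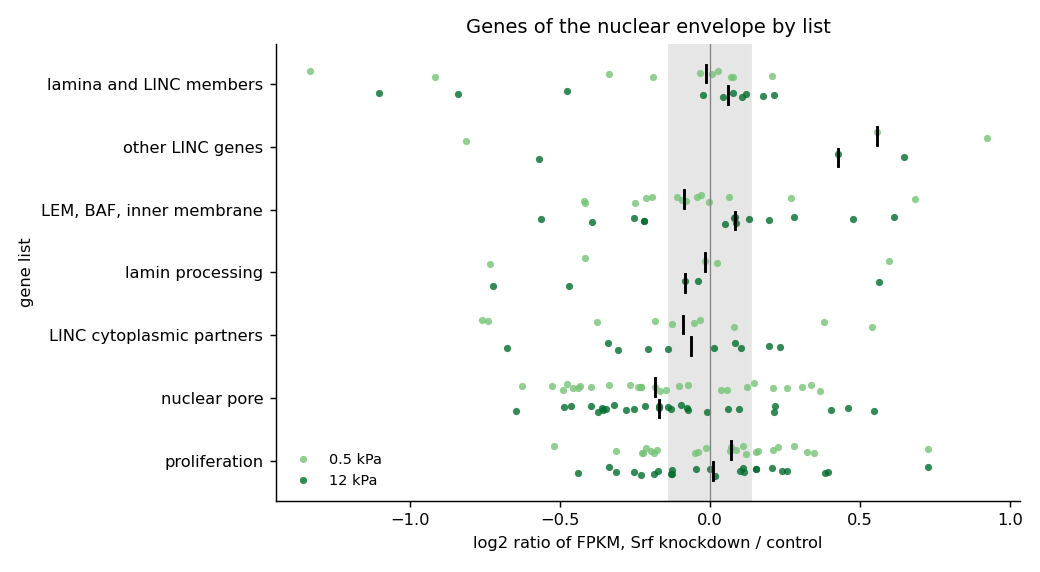
Log2 ratio of FPKM of Srf-knockdown to control NPCs at 0.5 kPa (light) and 12 kPa (dark) for each gene above the minimum in 7 lists, with the median of each list as a black bar and a grey band for ratios within 1.1-fold. The nuclear pore list has its median below 0 (-0.18 and -0.17), while the members have 2 genes far to the left, Syne1 and Sun2. The ratios are not centred by GC content.

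Genes with a pattern most like that of a member were sought by the distance between log2 FPKM values over the 4 libraries, each gene centred on its mean. This is a description over few libraries. The nearest to Lmna were Pramef8 (distance 0.02), Psph (0.06), Dhtkd1 (0.06), Tes (0.06) and Fn1 (0.08), and 13 genes were within 0.1. The nearest to Syne1, the member with the widest range, were Slc20a1 (0.08), Lrrfip1 (0.08), Lpp (0.08), Neto2 (0.09) and Rai14 (0.09), and 7 genes were within 0.1. The member nearest to Lmna was Lbr, at rank 79 of all genes, and that nearest to Syne1 was Sun2, at rank 208.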

How the data were processed

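The authors made stranded mRNA libraries from total RNA, sequenced them single-end, trimmed the reads with cutadapt 1.9.1, mapped them to mm10 with TopHat2 2.1.0 and Bowtie2 2.2.8, took reads with a mapping quality of at least 20 and ran Cufflinks 2.2.1. The deposited values are FPKM, which the paper's methods call RPKM, 1 library for each condition. Here, 63 symbols listed more than once were left out, leaving 21862 genes. The comparisons used the 10489 genes whose FPKM passed 2 in every library, and log2 ratios were taken without rescaling or a pseudocount.

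Depth was estimated from genes under an FPKM of 0.1, of which 45.9% of 1047 fell on whole-read steps within 2%. The reads of a gene used its shortest GENCODE version M1 transcript above 1000 nucleotides (less 200), which makes counting errors rather too large. GC content came from the longest such transcript (9569 genes, 50 bins). The depth, ratio and centring steps were tested on simulated data. Members and lists were chosen with earlier results of these data known. Named were all members, Srf, Mki67 and Top2a, listed envelope genes beyond 1.5-fold the same way at both stiffnesses in the knockdown or beyond 1.1-fold the same way in both stiffness comparisons, and the 5 genes nearest to Lmna and to the member with the widest range. Coordinates are RefSeq's on GRCm38. Alternatives were minimums of 1, of 5, in the compared libraries only or none, a pseudocount of 1, scaling to the median, the 75th percentile or within GC bins, and thresholds of 1.2 and 1.5-fold. Python 3.11.15, numpy 2.4.6, pandas 2.3.3 and matplotlib 3.10.9 were used.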

Additional observations from a re-analysis of the deposited data

Results flagged for a closer look

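Lmna differed by more than 1.1-fold between Srf-knockdown and control NPCs in opposite directions on the soft and hard matrix, with log2 ratios of -0.19 at 0.5 kPa and 0.18 at 12 kPa. Centred by GC content, the value at 12 kPa was -0.10. The difference was not tested, since each condition was 1 library. Of the other 9 members and the 59 other envelope genes above the minimum, Nrm was the one gene with such a change of direction. Its log2 ratios were -0.19 at 0.5 kPa and 0.48 at 12 kPa in the knockdown comparisons, and -0.49 in control and 0.18 in Srf-knockdown NPCs in the stiffness comparisons, and these differences were not tested either. Such opposite directions were seen for 2.42% and 6.01% of all genes.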

How the results depend on the processing

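No paired analysis was possible because no condition has a second library to match by number, and no library could be left out. An additive model over the 4 libraries was not fitted. The different minimums, the pseudocount, median centring and scaling to the 75th percentile left each count of members within 1.5 times its value. With a minimum of 5, Syne1 dropped out and the median at 0.5 kPa in the knockdown was 0.01. Of the log2 ratios of the members, 2 of 40 moved beyond their counting interval with a pseudocount of 1 (Syne1, as given) and 0 of 40 with median or 75th percentile scaling. Centring within GC bins moved 14 of 40 and reversed 1, Lmna at 12 kPa (-0.10). In Srf-knockdown against control NPCs it left 0 members higher at 0.5 kPa and 1 at 12 kPa, with medians of -0.10 and -0.0572, and with the knockdown it made 1 member (Lmna) lower on the hard matrix. So centred, 5 members were lower in the knockdown at 0.5 kPa and 4 at 12 kPa. Of all genes with a GC value, 35.5% and 35.0% were lower in the knockdown, and 34.9% and 34.7% were higher. On the hard matrix with the knockdown, 12.3% of them were lower. At a threshold of 1.2-fold, 1 member was lower and 0 higher on the hard matrix in control NPCs, and 0 were higher in the knockdown at either stiffness. Of all genes, 6.72% were lower and 7.27% higher on the hard matrix in control NPCs. In the knockdown, 26.5% of all genes were higher at 0.5 kPa and 27.5% at 12 kPa. With 1.5-fold, 0 were lower or higher on the hard matrix in control NPCs, 2 were lower in the knockdown at 0.5 kPa and 0 were higher at either stiffness. Of all genes, 0.963% were lower and 0.858% higher on the hard matrix in control NPCs. In the knockdown, 9.28% of all genes were lower at 0.5 kPa, and 9.19% and 10.2% were higher at 0.5 and 12 kPa. Counting error is the only error measured, and the spread between cultures or library preparations is not known.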
